A study of Phyllostachys violascens with 16 samples.

Results

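The transcriptome of the Lei bamboo shoot at harvest was described from the 4 libraries labelled 0d, out of 16 libraries in the study. They were chosen by their time point label alone, and no other library enters any value given here. Lei bamboo (Phyllostachys violascens) is a woody grass grown for its edible spring shoots. The study followed shoots through refrigerated storage, and 0d is its starting point. Each 0d library held RNA from the middle segment, about 10 cm long, of young shoots 30 to 40 cm high, pooled from 6 shoots. Per the labels about 120 shoots were used in 4 biological replicates of 30 shoots each, packed in polyethylene bags. The labels attach a treatment at 4 °C to every library, and to 0d no time in it beyond 0 days. They give no cultivar, growing site or time of day. A pool of 6 shoots averages over shoots and over the nodes, internodes and sheath bases of a segment, so no value belongs to 1 cell type.

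A bamboo shoot emerges with its nodes already formed and lengthens as cells divide at the base of each internode and then expand. Expanding cells lay down primary walls of cellulose and arabinoxylan. Lignin, a polymer of phenylpropanoid alcohols, stiffens the walls later and is known for making harvested shoots tough. The descriptions used below are those of the closest database hit of each gene, so they name a relative and not a tested function.

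Levels are given in FPKM, fragments per kilobase of gene and per M (mega) fragments, which allows genes of different length to be compared within a library. The deposited total count was 54.3 to 64.9 M per library. The table lists 50936 genes. Of these, 25834 had a mean of at least 1 FPKM over the 4 libraries, called detected from here on, which is 50.7% of the table. In single libraries the number at 1 FPKM or more was 25767.5 ± 51.5 (SD, n = 4). A further 13665 genes had 0 counts in all 4 libraries, which for a gene of 1000 bases allows up to 0.0497 FPKM, the level of 3 fragments over the group if 4 counts stand for 1 fragment. The 4 libraries lay close together. Among the 12058 genes with a mean of at least 10 FPKM, the median coefficient of variation (CV, SD over mean) between libraries was 4.08%. It was 2.197% at 100 FPKM or more and 10.5% between 1 and 10 FPKM. Replicate 4 stood slightly apart, being the library farthest from the median of the 4 in 29.5% of genes, against 22.4% to 25.1% for the others. Leaving out any library lowered the median CV, to 3.61% without replicate 4 and to between 3.83% and 3.91% without each of the others. A median SD over fewer libraries is lower by its construction. Only the difference between replicate 4 and the others is therefore read. With 1 group there is no contrast and no test, and differences below are read against the spread between libraries. Whether the 4 replicates differed in harvest or only in pooling is not given.

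The labelled tissue was checked against lists of marker genes. Detection in each list is read against the 50.7% of all genes. Of 74 genes for KNOX homeobox proteins, which keep cells in a dividing state in grass shoots, for cyclins of the A and B types and for the replication clamp PCNA, 35 were detected (47.3%, near the share of all genes), with a summed level of 493 to 506 FPKM. The highest was rough sheath 1 (PH02Gene32186) at 67.9 ± 2.59 FPKM, followed by knotted-1-like 13 (PH02Gene46847) at 51.2 ± 1.51 FPKM. Of 109 genes for expansins, which loosen primary walls, and for numbered cellulose synthase A subunits, 32 were detected (29.4%), with a sum of 685 to 722 FPKM. The secondary wall list was in effect a list of laccases, which made up 59 of its 64 genes. Of the 64, 10 were detected, all laccases, the sum was 32.7 to 36.2 FPKM, and the highest was Laccase-23 (PH02Gene18911) at 8.76 ± 0.967 FPKM.

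Green tissue markers were the highest list, with 30 of 40 genes detected and a sum of 1109 to 1135 FPKM. A Rubisco small subunit gene (PH02Gene44479), for the carbon fixing enzyme of chloroplasts, accounted for 341 ± 7.20 FPKM of it. Of the light harvesting antenna, PH02Gene49412 (chlorophyll a-b binding protein 2) stood at 127 ± 4.68 FPKM. In pooled tissue, fewer cells of a type and less RNA per cell cannot be told apart, so the lists do not give the makeup of the segment. Only 3 of 14 phloem genes were detected, led by the sucrose transporter SUT2 (PH02Gene43292) at 31.2 ± 0.776 FPKM. Of 6 root genes, 1 was detected, at 12.2 ± 1.25 FPKM, and the casparian strip membrane proteins were each below 0.1 FPKM. Seed storage genes, at 5 of 29, reached a sum of 57.99 to 67.9 FPKM, of which glutelin type-D 1-like (PH02Gene30293) held 25.8 ± 1.66 FPKM. Genes named for pollen or flowers, at 17 of 34, summed to 212 to 226.5 FPKM, of which pollen-specific protein C13 (PH02Gene19079) held 85.5 ± 4.52 FPKM. At 17 of 34 the pollen and flower list was detected as often as all genes.

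No small set of genes dominated the shoot. The 10 most abundant genes took 2.58 ± 0.0243% of the summed FPKM (n = 4), the 100 most abundant 11.0 ± 0.0225% and the 1000 most abundant 34.3%. A library needed 2359 to 2365 genes to reach 50% of its summed FPKM and 12907 to 12950 to reach 90%. The mean passed 1000 FPKM in 13 genes and 100 FPKM in 766, and those 766 held 30.4%. In deposited counts, which are not per length, the 100 highest genes held 9.68%.

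The highest position belonged to a gene with no description. PH02Gene44715 (scaffold 13, 6472419 to 6473507, minus strand) read 1970, 2021, 2042 and 1895 FPKM in replicates 1 to 4. PH02Gene34043 (scaffold 24, 34167382 to 34167787, plus strand), also without a description, followed at 1584, 1626, 1619 and 1568 FPKM. Every library of the first gene lay above every library of the second. Another undescribed gene, PH02Gene37884, stood at 1095 ± 18.4 FPKM. In all, 10 of the 30 highest genes carried no informative description, and 26 of the 100 highest. Genes with no description at all were mostly short, with a median length of 332 bases among those detected, and the effective length behind PH02Gene34043 was 322 bases.

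Among the described genes the highest was cinnamoyl-CoA reductase 1 (PH02Gene01704; scaffold 14, 21712506 to 21723708, minus strand), named for the enzyme that commits phenylpropanoids to lignin alcohols. It read 1501, 1495, 1473 and 1504 FPKM. Catalase (PH02Gene05658), which breaks down hydrogen peroxide, read 1462, 1471, 1481 and 1427 FPKM. The libraries of the 2 genes overlapped. An auxin-repressed 12.5 kDa protein gene (PH02Gene21281), of a family known from dormant and non-growing tissues, stood at 1441 ± 31.2 FPKM and overlapped catalase as well. Below them the cysteine protease oryzain alpha chain (PH02Gene45588), a papain-type enzyme of rice, read 1315, 1321, 1308 and 1321 FPKM, the smallest spread of the 30 with a CV of 0.486%. It did not overlap the auxin-repressed gene above or the pathogenesis-related protein PRMS (PH02Gene48686), at 1255 ± 22.4 FPKM, below.

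The next places held wall and growth genes. EXORDIUM-like (PH02Gene08569), named for a wall protein that promotes growth in Arabidopsis, stood at 1186 ± 12.8 FPKM. A putative ferulate 5-hydroxylase (PH02Gene08874), named for the P450 that leads to syringyl lignin, stood at 1180 ± 30.5 FPKM. A pair of genes for the translationally controlled tumor protein, a conserved growth regulator, followed at 1165 ± 27.4 FPKM (PH02Gene29502) and 1133 ± 17.4 FPKM (PH02Gene29592). Further down came polyubiquitin-A-like (PH02Gene34667) at 934 ± 16.6 FPKM, the HMG-box chromatin protein MNB1B (PH02Gene19706) at 906 ± 25.9 FPKM and xyloglucan endo-transglucosylase/hydrolase 1 (PH02Gene05411), which cuts and rejoins wall xyloglucan, at 887 ± 11.4 FPKM. S-adenosylmethionine decarboxylase (PH02Gene06665), an entry enzyme of spermidine synthesis, stood at 879 ± 7.71 FPKM. Acetylserotonin O-methyltransferase 1 (PH02Gene42942) stood at 856 ± 8.50 FPKM, glutathione S-transferase 1 (PH02Gene00763) at 848 ± 9.65 FPKM and ADP-ribosylation factor 2-like (PH02Gene02403), a GTPase of vesicle budding, at 739 ± 6.73 FPKM. The order of the 30 is loose in places, since 18 of its 29 neighbouring pairs overlapped between libraries.

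**Figure D1:**
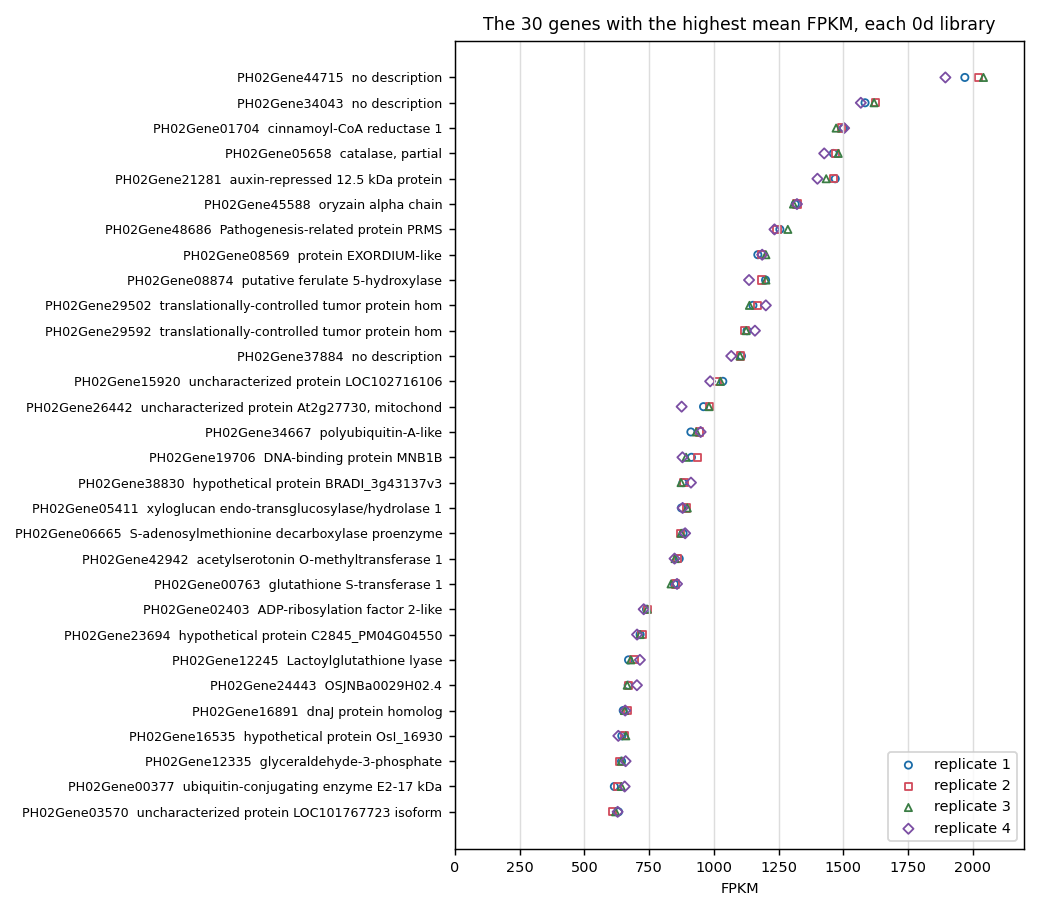
FPKM (horizontal axis) of the 30 genes with the highest mean, one row per gene from highest to lowest, with 1 marker for each of the 4 libraries at 0d. The rows run from a mean of 1982 FPKM for a gene with no description to 622 FPKM, and most neighbouring rows overlap.

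The descriptions were sorted into 39 functional groups, each gene counted once. Together they held 12849 genes and 34.9 ± 0.0111% of the summed FPKM. Genes with an informative description outside the groups held 37.2%, genes with an uninformative description 26.03% and genes with no description 1.94%, so each group share is a minimum. Transcription factors, the proteins that switch other genes on and off, had the largest share. Their 2166 genes took 3.59%, 3.60%, 3.60% and 3.54% in replicates 1 to 4. The proteins of cytosolic ribosomes came next with 3.21%, 3.23%, 3.21% and 3.20% from 348 genes, and the libraries of these groups did not overlap. Membrane traffic and small GTPases followed at 1.94 ± 0.00592%, ubiquitin and the proteasome at 1.90 ± 0.0109%, receptor-like and other protein kinases at 1.83 ± 0.00660% and chaperones at 1.75 ± 0.00317%. E3 ubiquitin ligases and F-box proteins held 1.55%, RNA binding and splicing 1.39%, proteases and their inhibitors 1.23% and translation factors 1.21%. The groups overlapped between libraries in 8 of 38 neighbouring pairs, all from the 13th place down.

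A large share came either from many low genes or from few high ones. Transcription factors averaged 9.04 FPKM per gene, under the 10.7 FPKM of all genes. Of their 2166 genes 1086 were detected (50.1%, near the 50.7% of all genes). Protein kinases averaged 5.26 FPKM, with 761 of 1906 detected (39.9%). Ribosomal proteins averaged 50.4 FPKM, with 282 of 348 detected (81.0%). By level per gene the order was led by tubulins, actins and their partners at 59.8 FPKM, dehydrins, LEA and stress proteins at 56.6 FPKM and terpene synthases at 52.6 FPKM, groups of 48 to 59 genes each. The auxin-repressed PH02Gene21281, which is neither a dehydrin nor a LEA protein, was placed in the second of these and held 43.9% of it, and without it the group averaged 32.3 FPKM and stood in the 12th place. The terpene synthase group includes 17 genes described as momilactone A synthases, which are dehydrogenases and not terpene synthases. They held 3.82% of its level, so without them its mean per gene would be higher. Ribosomal messages are short, and in counts without the length correction their share was 1.57% and their place the 6th, while transcription factors kept the first place with 3.61%. Under the pathway labels deposited for 17067 genes, Ribosome was the most abundant pathway with 4.45 ± 0.0106% from 729 genes. Of those, 347 were also in the ribosomal list by description and 233 had an uninformative description. Protein processing in the endoplasmic reticulum held 3.21% and the spliceosome 2.13%.

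**Figure D2:**
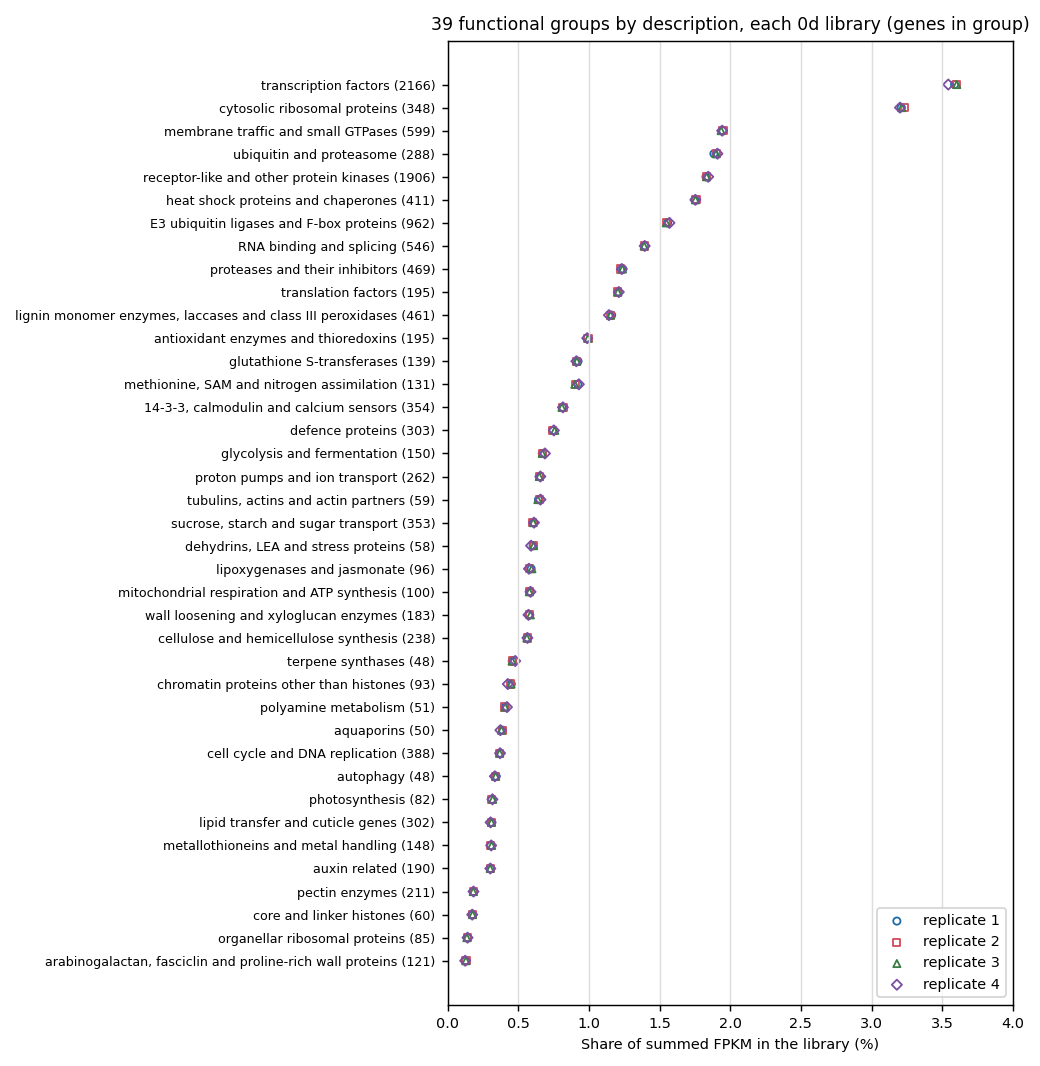
Share of the summed FPKM of each library (horizontal axis, %) in 39 functional groups by description, ordered by mean share, with the number of genes in each group in parentheses and 1 marker per 0d library. Transcription factors at 3.54% to 3.60% and ribosomal proteins at 3.20% to 3.23% stand clear of membrane traffic at 1.93% to 1.95%.

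Genes of protein synthesis were broadly expressed. Of 195 translation factor genes 147 were detected. Polyadenylate-binding protein 2 (PH02Gene28226), which binds the tail of messages, read 395, 398.3, 400 and 395 FPKM. Initiation factor 5A, which helps ribosomes past stalling sequences, had all 7 of its genes detected, 5 of them at 100 FPKM or more, and a sum of 1019 ± 8.39 FPKM. Elongation factor 1-alpha, which brings transfer RNA to the ribosome, had 12 of 13 genes detected and a sum of 1112 ± 12.3 FPKM. No single gene led it, the highest holding 13.98%. Ribosomal proteins of plastids and mitochondria were far lower than those of the cytosol, at 0.138 ± 0.00203% from 85 genes. Their highest member, 50S ribosomal protein L27-like (PH02Gene46521), stood at 65.9 ± 5.98 FPKM.

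Genes of protein folding and removal were abundant in the freshly cut shoot. DnaJ proteins, which pass clients to HSP70, summed to 2179 ± 6.86 FPKM over 65 detected genes of 99, led by PH02Gene16891 at 650, 667, 655 and 658 FPKM. HSP70 and HSC70 genes summed to 1768 ± 11.6 FPKM, of which 1 gene, heat shock protein 70 (PH02Gene35944), held 618 ± 4.71 FPKM. Small heat shock proteins, which hold unfolded proteins, summed to 1383 ± 23.8 FPKM with 33 of 44 genes detected and no member above 10.1% of the sum. The highest gene described as Hsp90 (PH02Gene45866), a chaperone of signalling proteins, stood at 241 ± 5.21 FPKM.

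On the removal side, E2 ubiquitin-conjugating enzymes formed the largest block with 4169 ± 32.1 FPKM over 62 detected genes of 82. The highest was ubiquitin-conjugating enzyme E2-17 kDa (PH02Gene00377) at 636 ± 17.2 FPKM. Subunits of the proteasome, with a few of its regulators, summed to 2900.5 ± 13.4 FPKM over 76 detected genes of 115, and the highest subunit gene held 5.04% of that. Ubiquitin and polyubiquitin genes showed the opposite shape. Polyubiquitin-A-like alone held 60.5% of their 1544 ± 35.2 FPKM, and only 5 of 14 were detected. Autophagy-related protein 8C, which coats autophagosomes, was given by 3 genes at 382 ± 7.23 (PH02Gene25011), 329 ± 12.2 (PH02Gene12244) and 115 ± 3.16 FPKM (PH02Gene48672).

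Lignin genes together held 1.15 ± 0.00797% of the summed FPKM, but very unevenly among the steps. Ferulate 5-hydroxylases summed to 2222 ± 24.5 FPKM and cinnamoyl-CoA reductases to 1600 ± 15.6 FPKM, and these 2 steps held 35.3% and 25.5% of the group. The reductase sum came from 1 gene, since PH02Gene01704 held 93.3% of it and the next of 31 genes stood at 21.2 FPKM. The hydroxylase sum came from 4 genes above 100 FPKM, led by PH02Gene08874 at 1180 FPKM and PH02Gene38755 (scaffold 21, 16670765 to 16673344, plus strand) at 582 ± 6.91 FPKM. The effective length behind PH02Gene08874 was 865 bases and that behind PH02Gene38755 was 2266 bases, so the genes sharing the description are not alike in length.

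The other monomer steps were lower. Phenylalanine ammonia-lyases, which open the pathway, summed to 580 ± 8.06 FPKM with 1 gene (PH02Gene27016) at 357, 349, 357 and 353 FPKM. Cinnamyl alcohol dehydrogenases, which make the final alcohols, summed to 169 ± 1.09 FPKM and caffeic acid O-methyltransferases to 104 ± 1.11 FPKM. The steps in between, such as cinnamate 4-hydroxylases at 49.4 ± 2.58 FPKM and 4-coumarate--CoA ligases at 87.4 ± 0.711 FPKM, each summed to less than 100 FPKM. The 4 highest ligase genes, at 39.3, 27.9, 12.7 and 2.94 FPKM, are described only as 4-coumarate--CoA ligase-like. Whether they act in the lignin step was not tested. The 2 genes described as p-coumarate 3-hydroxylase summed to 40.1 ± 2.05 FPKM. Genes of polymerisation divided. Laccases, oxidases that couple lignin alcohols, had 10 of 59 genes detected and a sum of 33.0 ± 1.42 FPKM, with 30 genes at 0 counts in all libraries. Class III peroxidases, which couple the same alcohols and also act in other wall reactions, had 54 of 193 detected, 1 of them an overexpressor of cationic peroxidase 3 and no peroxidase itself, and a sum of 1141 ± 18.2 FPKM, led by peroxidase 3 (PH02Gene48469) at 178 ± 5.47 FPKM, peroxidase 16 (PH02Gene05420) at 144 ± 1.65 FPKM and peroxidase 72 (PH02Gene23181) at 140 ± 3.46 FPKM.

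**Figure D3:**
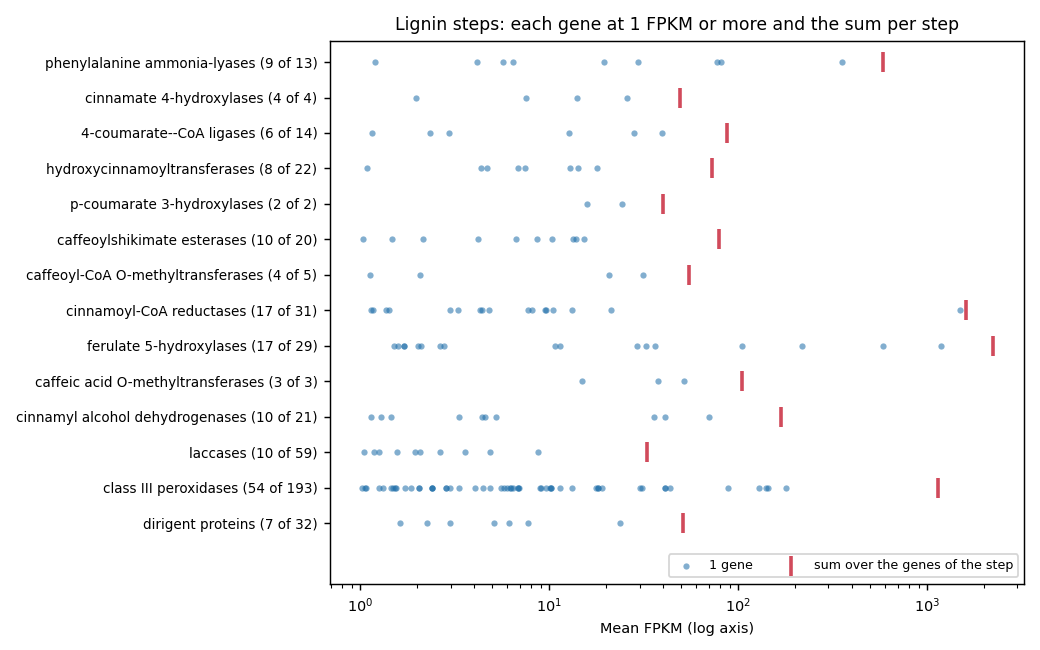
Mean FPKM over the 4 libraries at 0d (horizontal log axis) of the detected genes of each lignin step, 1 point per gene, and their sum over all genes of the step as a red bar, with the detected and total genes in parentheses. The sums of ferulate 5-hydroxylases (2222 FPKM) and cinnamoyl-CoA reductases (1600 FPKM) lie to the right of all other steps, and the reductase point nearest its bar is 1 gene at 1493 FPKM. Steps are named by description, and the highest points of the ligase row are genes described only as ligase-like. The caffeoyl-CoA O-methyltransferase row includes a gene described as fatty alcohol:caffeoyl-CoA acyltransferase, at 2.07 FPKM. The hydroxycinnamoyltransferase row includes genes described as putrescine hydroxycinnamoyltransferase, such as those at 14.1 and 7.39 FPKM.

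Genes of polysaccharide walls were carried by more members. Cellulose synthases, the enzymes that spin cellulose at the cell surface, had 18 of 49 genes detected and a sum of 941 ± 4.40 FPKM. The highest, cellulose synthase A catalytic subunit 3 (PH02Gene49673), stood at 139 ± 1.91 FPKM and held 14.7%. Cellulose synthase-like proteins, which make other backbones, summed to 73.2 ± 0.388 FPKM. COBRA-like proteins, which guide cellulose deposition, summed to 548 ± 3.55 FPKM, mostly in COBRA-like protein 3 genes at 295 ± 6.31 (PH02Gene21702) and 209 ± 3.17 FPKM (PH02Gene30808). UDP-glucuronic acid decarboxylase 6 (PH02Gene00159), which makes the xylose donor of xylan, read 397, 394, 387 and 408 FPKM. The wall loosening group was much more concentrated. Its 3 highest genes, EXORDIUM-like, xyloglucan endo-transglucosylase/hydrolase 1 and a xyloglucan xyloglucosyl transferase (PH02Gene02746) at 111 ± 2.11 FPKM, held 69.1% of 183 genes. EXORDIUM-like, by its description neither an expansin nor a xyloglucan enzyme, held 37.5% of the group. Without it the mean per gene was 10.9 FPKM, against 17.3 FPKM with it. Pectin enzymes held 0.181 ± 0.00126% and arabinogalactan, fasciclin and proline-rich proteins 0.127 ± 0.00279% of the summed FPKM, the latter the smallest of the 39 groups.

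The cytoskeleton group was small and high. Actin-depolymerizing factors, which sever actin filaments, summed to 996 ± 20.2 FPKM, alpha tubulins to 837 ± 17.7 FPKM, actins to 662 ± 15.5 FPKM, profilins to 653 ± 17.3 FPKM and beta tubulins to 333 ± 3.95 FPKM. The sums of actins and profilins were closer to each other than their SDs. Tubulin alpha-4 (PH02Gene46714) read 470, 479, 472 and 491 FPKM. Genes of the cell cycle and DNA replication, at 0.369 ± 0.00176%, had no member at 100 FPKM. Of these 388 genes 161 were detected (41.5%, against 50.7% of all genes). The highest of the group were kinases of the CDKF type, cyclin-dependent kinase F-4-like at 89.7 ± 2.51 (PH02Gene23216) and 84.2 ± 3.41 FPKM (PH02Gene29027). Histone genes differed by class. Histone H3.3 (PH02Gene23530), the variant laid down outside replication, stood at 208 ± 7.39 FPKM and held 95.8% of the H3 sum, while all H4 genes together reached 17.0 ± 1.54 FPKM. A single linker histone gene, H1E (PH02Gene36226), stood at 177 ± 7.56 FPKM, and H2A genes, 20 of 31 detected, summed to 418 ± 3.26 FPKM. Libraries that select polyadenylated messages can count histones differently, and how RNA was selected is not given in the sources used here.

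Redox and defence groups held several of the highest single genes at 0d. Catalase held 27.0% of the antioxidant group. Glutathione S-transferases, which attach glutathione to reactive compounds, held 0.915 ± 0.00491% from 139 genes. Members named for the phi class gave 2524 ± 26.9 FPKM, or 50.5% of the family, and those of the larger tau class 346 ± 4.29 FPKM. Glutathione S-transferase F10-like (PH02Gene28681) read 558, 545, 542 and 556 FPKM. In the defence group PRMS held 30.7%, followed by peamaclein-like (PH02Gene10467), a snakin-type peptide, at 508 ± 20.0 FPKM. Leaf-specific thionin (PH02Gene28214), a small toxic peptide, read 405, 409, 405 and 502 FPKM, with replicate 4 above the others. SENESCENCE-ASSOCIATED GENE 21 (PH02Gene40131), a LEA protein, read 349, 417, 430 and 394 FPKM, one of the wider spreads at this level.

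Genes for volatile and oxylipin products were prominent among small groups. Terpene synthases held 0.462 ± 0.0101%, and 95.2% of that came from genes described as farnesol and nerolidol synthases, which make acyclic sesquiterpene alcohols. Of 14 such genes 9 were detected, 6 of them at 100 FPKM or more, with a sum of 2404 ± 57.8 FPKM. The highest 3 did not separate. PH02Gene28702 read 482, 548, 539 and 568 FPKM, PH02Gene28703 read 519, 515, 511 and 535 FPKM and PH02Gene31673 read 517, 507, 489 and 528 FPKM. The first and second lie next to each other on scaffold 21 (67597975 to 67600665 and 67615749 to 67619659, both plus strand), and the third on scaffold 1 (2328438 to 2333701, minus strand). The gene at the lowest level in replicate 1, PH02Gene28702, held 19.3% of the family there and 21.6% to 21.8% in the other libraries. Lipoxygenase and jasmonate genes held 0.584 ± 0.00996%, led by linoleate 9S-lipoxygenase 2 (PH02Gene51050), which adds oxygen to free fatty acids, at 336 ± 15.1 FPKM. Momilactone A synthases, named for a rice phytoalexin, summed to 96.3 ± 3.66 FPKM over 17 genes. These were counted among the terpene synthases, though they are dehydrogenases.

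In primary metabolism, PH02Gene12335, described only as glyceraldehyde-3-phosphate, an intermediate of glycolysis, stood at 645 ± 10.3 FPKM. Alcohol dehydrogenase-like 2 (PH02Gene05455), of ethanol fermentation, stood at 290 ± 5.17 FPKM and triosephosphate isomerase (PH02Gene28763) at 206 ± 7.65 FPKM. Sucrose synthases, which open sucrose for wall and energy use, summed to 526 ± 7.33 FPKM, led by PH02Gene02657 at 243, 244, 245 and 247 FPKM. Invertases, which split sucrose to hexoses, summed to 407 ± 7.90 FPKM without a member at 100 FPKM, and sucrose phosphate synthases to 286 ± 1.07 FPKM. Trehalose phosphate enzymes summed to 746 ± 4.53 FPKM over 27 detected genes of 48. Genes matched as SWEET sugar exporters, 1 SWEETIE gene among them, summed to 192 ± 4.82 FPKM and sucrose transport proteins to 37.9 ± 0.642 FPKM. Cysteine synthases reached 1193 ± 44.9 FPKM, led by PH02Gene18046 at 566 ± 11.6 FPKM, and glutamine synthetases 539 ± 9.16 FPKM. Asparagine synthetases, the enzymes of a nitrogen transport amide, had all 5 matched genes detected, 1 of them described only by an asparagine synthetase domain, and a sum of 346 ± 4.49 FPKM.

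Polyamine genes were uneven, with 20 of 51 detected and 6 at 100 FPKM or more. The median gene of the group stood at 0.0112 FPKM, and 70.0% of its level came from S-adenosylmethionine decarboxylase and the polyamine oxidases 4 (PH02Gene00353) at 370 ± 3.60 FPKM and 2 (PH02Gene21981) at 312 ± 6.50 FPKM. Aquaporins, water channels of membranes, had a like shape. Of 50 genes 19 were detected, PIP genes of the plasma membrane held 61.5%, and PIP1-1 (PH02Gene00514) read 518, 538, 516 and 501 FPKM. TIP genes of the vacuole summed to 264 ± 8.10 FPKM, of which 81.8% was 1 gene. Auxin related genes, at 0.300 ± 0.000493%, were led by auxin response factor 4 (PH02Gene07292) at 153 ± 1.61 FPKM. The auxin-repressed PH02Gene21281, at 1441 FPKM, was counted with the dehydrins, LEA and stress proteins, so this share and this lead hold without it.

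How the level of a family is spread among its members was measured in 30 families of at least 30 genes. In the median family 48.1% of genes were detected, against 50.7% of all genes, and the highest member held 14.1% of the family total. That share ran from 2.41 ± 0.0358% in the ribosomal proteins to 29.9 ± 0.718% in the subtilisin-like proteases. The Gini coefficient, which is 0 when all members are equal and nears 1 when 1 member holds everything, ran from 0.593 to 0.927 with a median of 0.798. It was taken over all members, so undetected members raise it. Taken over all genes of the table it was 0.817. Between libraries the SD of that share was at most 1.22 percentage points, in the terpene synthases. Members of a family share sequence, and reads from near-identical copies may be split between them, so the level of 1 copy is less certain than a family sum.

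By this measure the most even families after the ribosomal proteins were protein phosphatases 2C (Gini 0.682), zinc finger CCCH and C2H2 proteins (0.713) and F-box proteins (0.735), the substrate receptors of a ubiquitin ligase. Among detected members alone the order differed. The 90th percentile was 25.2 times the 10th in ribosomal proteins and 19.9 times in the phosphatases. It was 5.99 times in disease resistance proteins and 43.5 times in subtilisin-like proteases. F-box proteins had 184 of 328 genes detected at a median of 7.98 FPKM, and the highest, FBX14 (PH02Gene08555), stood at 138 ± 1.21 FPKM. In the serine/threonine kinases 439 of 866 genes were detected, or 50.7%, the same share as of all genes. CBL-interacting protein kinase 31 (PH02Gene07813), a partner of calcium sensors, stood at 350 ± 5.80 FPKM. It was ahead of CBL-interacting protein kinase 9 (PH02Gene34581) at 142 ± 2.57 FPKM.

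At the other end stood families in which few genes held nearly all of the level. Of 121 subtilisin-like protease genes, enzymes secreted to the wall, 41 were detected and 50 had 0 counts. The 3 highest all carried the description SBT3.9. PH02Gene39294 stood at 399 ± 11.6 FPKM, PH02Gene32793 read 318, 269, 313 and 265 FPKM and PH02Gene37899 stood at 200.5 ± 15.5 FPKM. The 20 highest class III peroxidases held 88.0% of that family. In the AP2/ERF factors, which include the ethylene response factors, ethylene-responsive transcription factor 1 (PH02Gene02658) read 620, 618, 623 and 610 FPKM and held 28.7 ± 0.198% of 188 genes. The next, PH02Gene38917 and PH02Gene09592, carried the same name at 321 ± 8.79 and 219 ± 2.84 FPKM. In terms of equal members, the inverse Simpson number gave 8.06 genes for AP2/ERF factors and 138 for the 348 ribosomal genes.

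Transcription factor families differed in shape. NAC factors, plant-specific regulators of stress and wall programs, held 0.516% of the summed FPKM from 159 genes, more than AP2/ERF factors at 0.394% from 188 and MYB factors at 0.200% from 222. Their 3 highest members were a stress responsive NAC (PH02Gene04473) at 396 ± 11.5 FPKM, NAC 67-like (PH02Gene34765) at 245 ± 11.5 FPKM and NAC 29-like (PH02Gene17549) at 201 ± 4.67 FPKM. MYB factors had 107 genes detected, the highest at 66.8 FPKM. WRKY factors, known from defence, had 63 of 149 detected and 3 above 100 FPKM, namely WRKY2 (PH02Gene25907) at 122.7 ± 1.28 FPKM, WRKY 60 (PH02Gene30731) at 115 ± 6.51 FPKM and a putative WRKY protein (PH02Gene37557) at 102 ± 1.35 FPKM. Homeobox factors were led by HOX12 (PH02Gene39080) at 94.2 ± 3.80 FPKM and HOX32 (PH02Gene31932) at 91.5 ± 1.83 FPKM, whose libraries overlapped.

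Large families known for low and specialised expression were low here. Pentatricopeptide repeat proteins, which edit and process organelle RNA, had 185 of 614 genes detected at a median of 2.64 FPKM. A single member, PH02Gene39127, read 349, 337, 345 and 380 FPKM and held 27.0 ± 0.927% of the family, against 69.1 ± 3.002 FPKM for the next (PH02Gene21317). Disease resistance proteins, intracellular immune receptors, had 115 of 489 detected at a median of 2.73 FPKM. Only PH02Gene15826 at 120 ± 2.44 FPKM and PH02Gene01195 at 86.7 ± 2.14 FPKM, both described as At5g47280, stood above 25 FPKM. Leucine-rich repeat receptor kinases had 123 of 337 detected, led by PXL2 (PH02Gene36939) at 265 ± 3.93 FPKM and a SERK2-like gene (PH02Gene29982), a co-receptor of growth and defence signals, at 184 ± 2.60 FPKM. Cytochrome P450s, apart from those listed as lignin enzymes, had 69 of 212 detected, the highest at 73.1 FPKM. The ferulate 5-hydroxylases left out of this family, also P450s by name, summed to 2222 FPKM. The low level therefore holds for the family as listed and not for P450s as a whole.

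**Figure D4:**
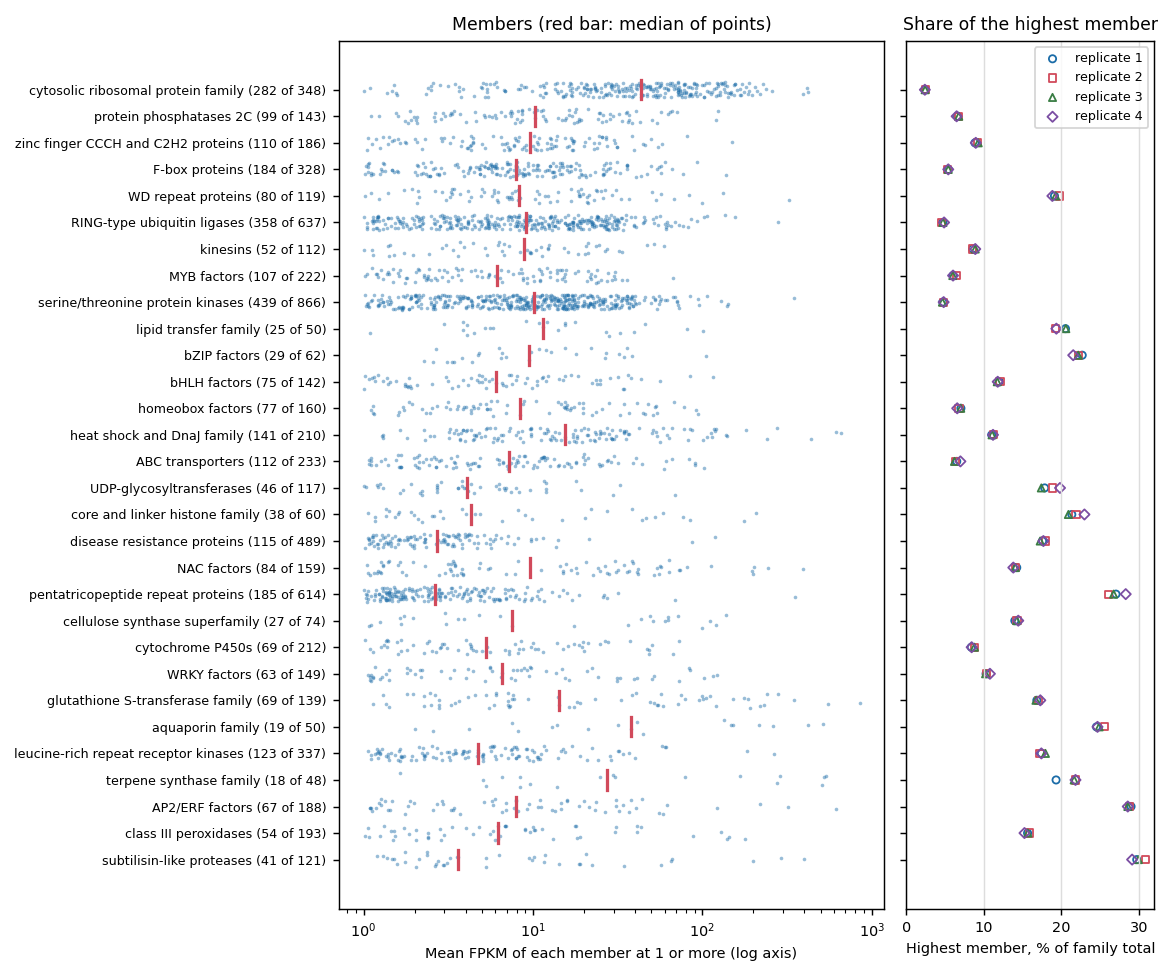
Left, mean FPKM at 0d (log axis) of every member at 1 FPKM or more in 30 families, with the median of the plotted members as a red bar and the plotted and total members in parentheses. Right, the percent of the family total held by the highest member in each of the 4 libraries. Families are ordered by Gini coefficient, taken over all members and not only those plotted, from 0.593 (top) to 0.927 (bottom). The highest member holds 2.41% in the top row and 29.9% in the bottom row.

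The ribosomal family allows copies and proteins to be told apart, because descriptions name the protein. The 348 genes named 74 proteins, 29 of the 40S and 45 of the 60S subunit, with a median of 4 genes per protein and at most 17. Genes of the 40S subunit held 1.29 ± 0.00897% and those of the 60S subunit 1.92 ± 0.0109% of the summed FPKM. Each protein enters a ribosome in a fixed number, but copies differed widely. Over detected genes the 90th percentile, 141 FPKM, was 25.2 times the 10th, 5.59 FPKM. After summing the genes of each protein the 90th percentile, 428 FPKM, was 6.27 times the 10th, 68.3 FPKM. A sum over several genes has a narrower spread by its construction.

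The highest sums were those of S8 at 785 ± 13.1 FPKM, L34 at 727 ± 12.5 FPKM, L36a at 604 ± 11.4 FPKM and L5 at 541 ± 9.23 FPKM. The lowest were L4 at 5.68 ± 0.298 FPKM, L23 at 11.0 ± 0.663 FPKM and S10 at 11.5 ± 0.766 FPKM, each named in at most 2 genes. The pathway label Ribosome covers 233 genes with uninformative descriptions, so low sums may lack genes that the descriptions do not name. In 29 of the 65 proteins with at least 2 detected genes a single copy held over 50% of the sum. L5 was carried by PH02Gene29817 at 419, 434, 424 and 416 FPKM, which held 78.2%, and S23 by PH02Gene23825 with 97.8%. Others were shared evenly. The 3 copies of L10a ran from 57.2 to 71.5 FPKM, and the 5 copies of S16 from 19.7 to 34.9 FPKM. The median ratio of the highest to the lowest detected copy was 6.64.

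**Figure D5:**
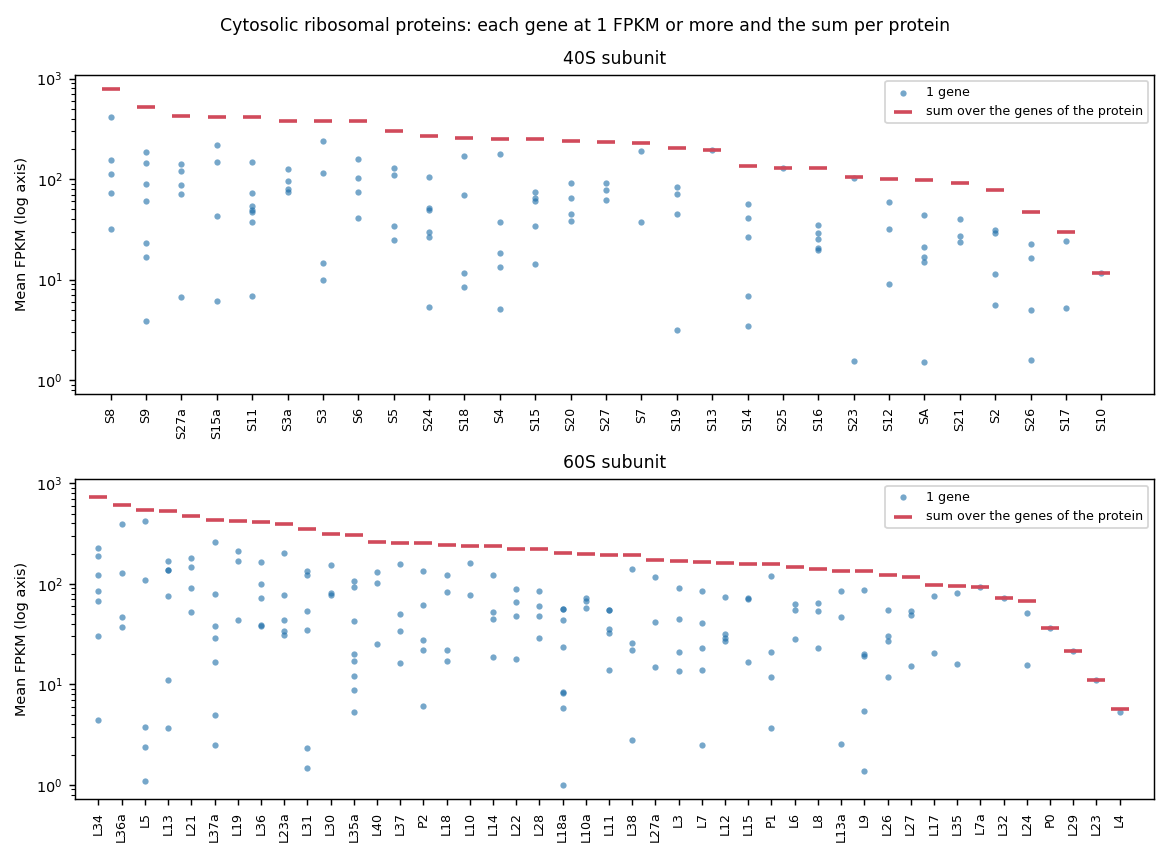
Mean FPKM at 0d (log axis) of each detected gene for a cytosolic ribosomal protein (points) and the sum over all genes of that protein (red bars), with 40S proteins above and 60S proteins below, ordered by sum. The median ratio between the highest and lowest point of a protein is 6.64, and 10% of the sums lie below 68.3 FPKM and 10% above 428 FPKM.

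The same question was put to every description carried by exactly 2 genes. There were 4566 such pairs of copies. Both were detected in 2444 pairs (53.5%), 1 in 975 pairs (21.4%) and neither in 1147 pairs (25.1%). Where both were detected, the higher copy stood at a median of 1.93 times the lower, with 10% of pairs above 6.72 times. In 1270 of these pairs, or 51.96%, the copies lay within a factor of 2, and in 147, or 6.01%, they differed more than 10 times. The 4 libraries of the higher copy lay wholly above those of the lower in 2140 pairs, or 87.6%. The higher copy was picked by its mean over the same libraries, which favours such a gap. The share among pairs of unlike description was not measured, so this value is not read as a trait of copies. The SD of the log2 ratio between libraries had a median of 0.12. Shared descriptions do not show that copies are duplicates, and the share of reads that fit both copies was not analysed here.

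A few genes broke the close agreement of the libraries. Of the 12058 genes at 10 FPKM or more, 90 had a CV above 20% and 7 were listed at 0 in at least 1 library. The 8 with the highest CV included UDP-arabinopyranose mutase 1 (PH02Gene50749) at 39.2, 42.2, 0 and 0 FPKM in replicates 1 to 4. The only other gene of that description, PH02Gene43305, read 42.1, 42.9, 53.6 and 65.8 FPKM, being higher where the first was at 0. Their sum read 81.4, 85.1, 53.6 and 65.8 FPKM, with a CV of 20.4%, so it was still lower in replicates 3 and 4. A polyadenylate-binding protein 2-like gene (PH02Gene22993) read 27.3, 0, 28.7 and 0 FPKM, and its namesake was at 0 in all libraries. A cysteine synthase gene (PH02Gene51440) read 43.7, 1.85, 0 and 29.1 FPKM. Its CV was 114%. The sum over the 12 genes of that description, of which it is a small portion, read 1054, 995, 985 and 1070 FPKM, low in the same replicates as the gene. For a gene described as hypothetical protein SORBI_3007G085001 (PH02Gene49955), at 13.1, 34.3, 3.76 and 24.2 FPKM, the sum over 4 genes of the description had a CV of 1.20% against 70.4% for the gene. In a 26S protease regulatory subunit 8 homolog A gene (PH02Gene21014), at 8.53, 24.7, 0 and 23.4 FPKM, summing the copies left a CV of 54.96%. How reads were assigned among copies is not given in the sources used here, and its part in these values was not tested.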

How the data were processed

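RNA sequencing of 4 pooled libraries at 0d was analysed, out of 16 in the study. The authors deposited FPKM and estimated counts per gene with a description and pathway labels, per the file headers. Aligner, counter, strand setting, genome build and RNA selection: not given in the sources used here. In the deposited estimated counts the most frequent value above 0 was 4, then 8, so 12 counts were taken as 3 fragments, which put the libraries at 13.6 to 16.2 M fragments. That unit is an assumption, since 34.9% of counts from 1 to 19 were multiples of 4. The limits for genes at 0 and the comparison of library pairs with sampling noise rest on it. A deposited FPKM of 0.0001 was read as 0.

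Shares were taken of the summed FPKM within a library (545636 to 546747), and means and SDs over the 4 libraries. Length is that implied by counts and FPKM. Functional groups, families and markers are word patterns on the descriptions, with each gene in its first matching group. Members and lists were chosen with earlier results of these data known, patterns were corrected for stray matches after descriptions were read, and enzyme steps and subclasses were added after values were seen. Named genes are the 30 highest, the 3 highest of each group and family, the markers at 1 FPKM or more (at most 5 a list) and the 8 with the highest CV, plus the highest members of subclasses. The design holds 1 group, so no test was run (the smallest two-sided p that an exact paired test over 4 libraries can give is 0.125). Each library was taken as 1 replicate, as labelled. At the assumed 4 counts per fragment, counts between library pairs differed by more than sampling noise (chi-square per degree of freedom 1.75 to 2.13). That excess does not show how the replicates arose. Limits for genes at 0 cover counting error only. Alternatives were each library left out, counts, filters on level and length, other lists and other spread measures. Python 3.11.15, pandas 2.3.3, NumPy 2.4.6, SciPy 1.17.1 and matplotlib 3.10.9 were used, and the scripts were tested on simulated data.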

Additional observations from a re-analysis of the deposited data

Results flagged for a closer look

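Of 406 sets of 4 library values examined, 32 had 1 library far from the other 3, by a gap above Dixon's critical value for 4 samples. Chance alone gives such a gap in about 1 of 20 sets. The library apart was replicate 4 in 16 sets, replicate 2 in 9, replicate 1 in 4 and replicate 3 in 3. The sets share libraries and genes, so they are not independent.

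Replicate 4 had 12 genes at 1000 FPKM or more, against 13 in each of the others, a gap of 1 gene flagged only because the others were tied. Glycolysis and fermentation held 0.687% there, against 0.668% to 0.669%, and dehydrins, LEA and stress proteins 0.589%, against 0.604% to 0.607%. The primary wall markers summed to 685 FPKM there, against 718 to 722 FPKM. Summed levels in replicate 4 were 2185 FPKM for ferulate 5-hydroxylases, 811 FPKM for UDP-sugar enzymes, 1115 FPKM for polyamine oxidases and 1130 FPKM for elongation factor 1-alpha. The first lay below the other libraries and the rest above them. Among single genes replicate 4 was high for leaf-specific thionin (PH02Gene28214) at 502 FPKM, actin-depolymerizing factor 4 (PH02Gene06080) at 478 FPKM and PH02Gene24443 at 703 FPKM. It was low for the undescribed PH02Gene37884 at 1067 FPKM, the stress responsive NAC (PH02Gene04473) at 378 FPKM, NAC 67-like (PH02Gene34765) at 228 FPKM, peroxidase 3 (PH02Gene48469) at 169.7 FPKM and PH02Gene17793 at 55.5 FPKM.

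Replicate 2 had 12065 genes at 10 FPKM or more, against 12037 to 12040. The highest MYB gene held 6.41% of its family there, against 5.99% to 6.01%. Summed levels in replicate 2 were 306 FPKM for prefoldin subunits, 72.6 FPKM for cellulose synthase-like proteins and 1032 FPKM for eIF5A. Its single genes apart were PH02Gene47163 at 144 FPKM and PH02Gene02526 at 38.02 FPKM, both high, and PH02Gene36775, a histone H2A variant, at 81.1 FPKM and PH02Gene02441 at 71.002 FPKM, both low. In replicate 1 PH02Gene28702, the terpene synthase with the highest mean but not the highest in that library, held 19.3% of its family, E2 conjugating enzymes summed to 4121 FPKM, PH02Gene00679 stood at 103.6 FPKM and the thionin PH02Gene50531 was at 0. In replicate 3 TIFY 10c (PH02Gene03055) stood at 275 FPKM, expansin-like A2 (PH02Gene50483) at 75.7 FPKM, and PH02Gene51137 was at 0 against 22.3 to 23.2 FPKM.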

How the results depend on the processing

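Leaving out each library in turn gave 25788 to 25852 detected genes, 11.03% to 11.05% for the 100 highest genes, 3.577% to 3.597% for transcription factors, 14.12% to 14.15% for the median highest member of a family and 3.61% to 3.91% for the median CV, the lowest without replicate 4. Requiring 1 FPKM in every library left 24527 genes. Shares of the 100 highest genes were 9.68% in counts, 11.11% among genes of at least 1 FPKM, 11.09% without genes under 300 bases and 11.24% without genes of a CV above 20% (added after the data were seen). Transcription factors held 3.58% to 3.61% in counts, under both filters and with the first lists, and under pathway labels (also added) the largest was Ribosome at 4.45%. The median share of the highest family member was 12.7% in counts, 14.2% among genes of at least 1 FPKM, 12.97% without genes under 300 bases, 11.9% in families of at least 60 genes, 12.3% under the lists as first written and 18.99% with genes of the same description summed. These last settings, the first lists and the sums, were added later. The 10 largest groups were the same 10 under all settings run except the first lists, which shared 8. The median CV was 6.56% over genes of at least 1 FPKM. No paired analysis was possible because the 4 libraries form 1 group with no contrast.

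The order of groups depends on descriptions, since 26.03% of the summed FPKM came from genes with an uninformative description and 1.94% from genes with none. Levels of single copies depend on how reads were assigned, and the values of 90 genes of wide spread could not be checked. Below 1 FPKM a gene of 1000 bases rests on few fragments, 3 of them being 0.185 to 0.221 FPKM in a library.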

Other observations

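Expression was also unevenly placed on the assembly. Of the 24 scaffolds with at least 500 genes, the share of genes detected ran from 27.95% on scaffold 1 (762 genes, 6.24 FPKM per gene) to 57.6% on scaffold 15 (3227 genes, 14.6 FPKM per gene). Scaffold 15 alone carried 80 of the 766 genes at 100 FPKM or more and 8.60% of the summed FPKM. The other 1562 scaffolds held 1851 genes, of which 553 were detected and 6 reached 100 FPKM. In 33 places neighbouring genes both reached 100 FPKM. In 5 of them they carried the same description, the nerolidol synthases PH02Gene28702 and PH02Gene28703 among them. How many such places a random order of genes would give was not measured. Several of the genes with the widest spread between libraries lay on small scaffolds, such as PH02Gene50749 on scaffold 16779 and PH02Gene51440 on scaffold 13630.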
